A study of Mus musculus with 6 samples.

Results

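Atmin, the gene knocked out in this study, and the genes that lie beside it on mouse chromosome 8 were followed through 6 bead arrays. The question was whether the loss of signal stayed with Atmin or reached the adjacent genes. The probes were those whose target name on the array, ignoring case, was one of 9 names: Atmin, Cdyl2, Cenpn, 2310061C15Rik (the older name of Cmc2), Gcsh, Pkd1l2, Cmip, Plcg2 and Mphosph6. This gave 8 of the 30774 target names with 13 of the 45281 probes, 3 for Atmin and 10 for 7 of the 8 neighbours. No probe carried the name Cmip. A further 5 probes belong to 4 of these genes under older target names that RefSeq lists as synonyms, among them 2 probes for Cmip, and they are given beside the others and named as such.

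RNA came from primary fibroblasts of mouse embryos at day 12.5 of development, connective-tissue cells kept in culture and passaged 1 time. The 3 knockout cultures were Asciz-/- and the 3 wild-type cultures Asciz+/+, Asciz being the older name of Atmin, both on a C57BL/6 background and with no treatment. Each culture was grown from its own embryo and hybridised to 1 array. No source used here states how the allele was made or which part of the gene it alters. The Atmin probes therefore cannot be placed inside or outside that part.

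ATMIN, also called ASCIZ, is a zinc-finger protein with repeated binding sites for the dynein light chain LC8. It binds the promoter of Dynll1, the gene for LC8, and activates it, and it has also been described as a partner of the DNA damage kinase ATM. The neighbours have unrelated roles. CDYL2 is a chromodomain protein, CENPN binds the centromeric nucleosome, CMC2 is a small mitochondrial protein known from yeast to serve cytochrome oxidase assembly, and GCSH is the lipoyl-carrying H protein of the glycine cleavage system. PKD1L2 is a polycystin relative, CMIP an adaptor protein, PLCG2 a gamma-type phospholipase C best known from blood cells, and MPHOSPH6 a cofactor of the RNA exosome in ribosomal RNA maturation.

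In the gene order of the RefSeq annotation of assembly GRCm38.p6, Cenpn was the nearest annotated gene on one side of Atmin (position -1), followed by Cmc2 (position -2) and Cdyl2 (position -8). On the other side Gcsh stood at position 2, Pkd1l2 at position 3, Cmip at position 8, Plcg2 at position 13 and Mphosph6 at position 20, all gene types counted. The annotated span of Cmc2 overlaps those of both Cenpn and Atmin. The promoter windows of these 3 closest genes are printed because they lie closest to the targeted gene and in part overlap. Each runs 5′ to 3′ on the gene's own strand, from RefSeq on GRCm38.p6, with 250 bases before the annotated start in lower case and 50 bases from it in capitals.
Atmin, chr8:116943143-116943442, plus strand: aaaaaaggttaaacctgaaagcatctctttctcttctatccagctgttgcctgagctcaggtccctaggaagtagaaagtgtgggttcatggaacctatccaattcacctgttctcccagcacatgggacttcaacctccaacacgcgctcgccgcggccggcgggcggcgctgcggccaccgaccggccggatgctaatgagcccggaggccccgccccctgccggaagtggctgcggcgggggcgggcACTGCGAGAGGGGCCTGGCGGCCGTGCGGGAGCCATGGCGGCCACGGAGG
Cenpn, chr8:116921490-116921789, plus strand: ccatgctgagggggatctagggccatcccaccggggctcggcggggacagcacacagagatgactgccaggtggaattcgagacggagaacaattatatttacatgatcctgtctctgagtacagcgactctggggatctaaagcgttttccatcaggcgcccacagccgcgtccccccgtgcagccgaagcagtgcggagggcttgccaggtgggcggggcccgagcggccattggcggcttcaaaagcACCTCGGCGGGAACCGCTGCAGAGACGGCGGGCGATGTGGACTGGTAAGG
Cmc2, chr8:116921387-116921686, minus strand: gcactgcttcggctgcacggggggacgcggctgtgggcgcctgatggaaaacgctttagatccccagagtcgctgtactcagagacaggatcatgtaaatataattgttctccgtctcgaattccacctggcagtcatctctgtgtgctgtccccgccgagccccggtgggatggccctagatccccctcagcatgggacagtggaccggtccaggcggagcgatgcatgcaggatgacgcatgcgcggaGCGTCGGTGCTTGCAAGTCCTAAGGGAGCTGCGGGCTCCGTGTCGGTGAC
The Cenpn and Cmc2 windows shared 197 of their 300 bases, so that these genes lie back to back at the printed starts, while Atmin has a window of its own. From its printed start Cmc2, on the minus strand, runs away from Cenpn and Atmin. The overlap of its annotated span with theirs therefore lies in a part of the span that this start does not cover. The windows held 25 CpG dinucleotides for Atmin and 23 each for Cenpn and Cmc2, where the median of 32851 promoter windows was 7. A window was found for 8 of the 9 genes. The letters TATAAA, searched on both strands, occurred in the window of 1 of these 8, Pkd1l2, and in 13.6% of all windows.

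The arrays detected 17580 to 18794 probes each (detection p under 0.05), and the 18221 probes detected on at least 3 of them were tested. The 3 arrays of each genotype limited the precision. All 10 fibroblast markers checked, among them Col1a1, Col3a1, Thy1 and Vim, were detected on every array, and none of 4 endothelial markers entered the test. Of 4 epithelial markers 3 were tested, Cdh1, Krt8 and Krt18. All 3 were detected on every array and were higher in the knockout cultures, with 0 past the threshold. Of 17 macrophage markers 10 were tested and all 10 were lower in the knockout cultures, while 6 of 7 tested skeletal muscle markers were higher, none past the threshold. Among the brightest probes of all named genes 52.2% were lower and 0.0467% passed. The macrophage markers Ms4a7, C1qb and C1qc entered the test through the wild-type arrays, where they are high. Wild-type replicate 1 had Xist at 8.20 against 4.32 to 4.37 elsewhere (log2 level), so it was an XX culture among XY cultures, and knockout replicate 3 correlated least with the other arrays (mean r of 0.979 across probes, against 0.985 to 0.989).

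Atmin itself fell. Its brightest probe, 4050360, read 624.5, 450.7 and 582.4 intensity units on wild-type arrays 1, 2 and 3, and 208.9, 173.9 and 139.2 on knockout arrays 1, 2 and 3. Every knockout value lay below every wild-type value. The reading error within an array, the standard error over the 34 to 52 beads that carry the probe, was between 2.58% and 6.32% of the value. After background correction and normalization the log2 level of the probe was 8.78 ± 0.08 in wild-type and 6.79 ± 0.27 in knockout cultures (mean ± SD, n = 3 cultures each). Knockout minus wild type, the log2 difference was -1.99 (SE 0.16, limma adjusted p = 0.00646 over all tested probes, 95% confidence interval of this probe -2.36 to -1.63). This leaves 25.1% of the wild-type level.

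The second bright probe, 2510376, gave nearly the same value. It read 396.7, 259.7 and 376.3 units on the wild-type arrays and 154.6, 121.7 and 115.9 on the knockout arrays, again without overlap. The log2 difference was -1.95 (SE 0.14, limma adjusted p = 0.00427, 95% confidence interval -2.27 to -1.63), from 7.94 ± 0.09 to 5.99 ± 0.19 (n = 3 each). All 3 knockout arrays still detected both probes. Over the 6 arrays they correlated at r = 0.99, a description that the genotype gap alone makes high.

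The remaining Atmin probe, 7330682, lay near background and did not separate the genotypes. It read 99.9, 101.0 and 89.2 units in wild-type and 113.1, 87.6 and 93.8 units in knockout cultures, was detected on 1 wild-type and 2 knockout arrays, and gave 0.11 (SE 0.25, limma adjusted p = 0.937, 95% confidence interval -0.47 to 0.68). A probe at this brightness has little room to fall. The plot of the intensities of the Atmin probes shows these readings side by side.

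**Figure D1:**
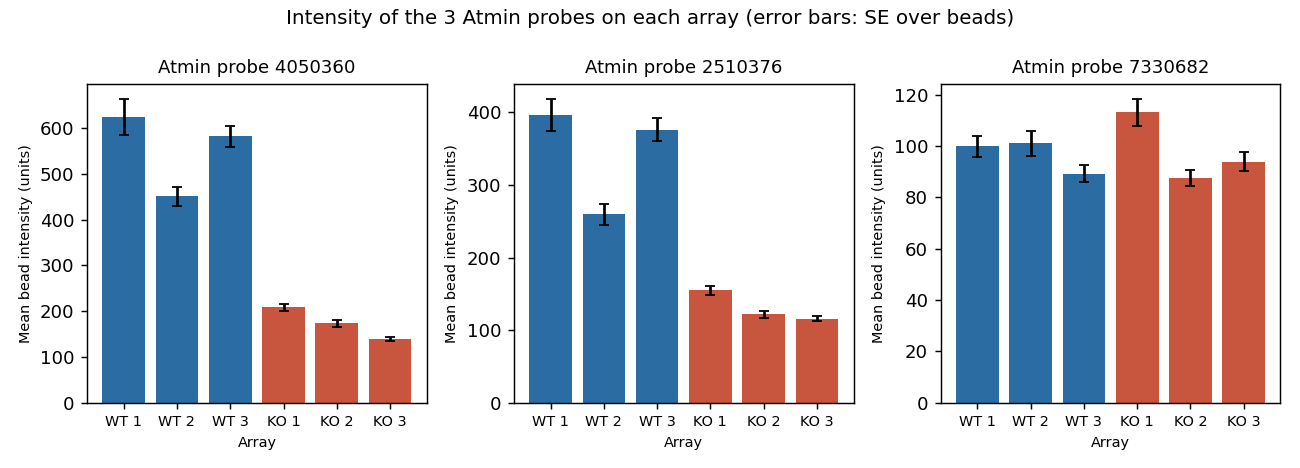
Mean bead intensity (linear units, from 0) of each Atmin probe on the 3 wild-type (WT, blue) and 3 knockout (KO, red) arrays, with bars for the standard error over beads within an array. Probes 4050360 and 2510376 drop in every knockout culture, to at most 208.9 and 154.6 units, while probe 7330682 stays between 87.6 and 113.1 units in both genotypes.

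How much Atmin signal remained depended on how background was taken off. The fitted background, an estimate of the negative control mean inferred from probe intensities and their detection p, was between 84.2 and 91.5 units on the 6 arrays. Net of it, probe 4050360 fell from 464 ± 88 to 87.7 ± 32.7 units (mean ± SD, n = 3 each), or 18.9% of wild type, and probe 2510376 from 256 ± 71 to 44.4 ± 18.8 units, or 17.4%. Without any subtraction the knockout means were 31.5% and 38.0% of the wild-type means. On the normalized scale, to which a constant of 16 units is added before the logarithm, they were 25.1% and 25.9%. The direction was the same by each of these measures for both bright probes. Because the probes could not be placed against the altered part of the gene, the remaining signal says nothing about residual intact transcript.

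Among the 18221 tested probes 8 passed an adjusted p of 0.05 (0.0439%), 4 lower (0.022%) and 4 higher (0.022%) in knockout cultures. The 4 lower ones were the 2 bright Atmin probes and 2 probes of Dynll1. By smallest p the bright Atmin probes ranked 3 and 5 of all tested probes, and by lowest log2 fold change 5 and 3. The call for probe 4050360 was lost when wild-type replicate 1, 2 or 3 was left out (adjusted p = 0.0603, 0.0539 and 0.0779 by limma, log2 fold changes from -2.03 to -1.95). That for probe 2510376 was lost without wild-type replicate 1 (adjusted p = 0.0601 by limma, log2 fold change -1.95) or 3 (adjusted p = 0.0653 by limma, log2 fold change -1.91).

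None of the neighbours passed. Of the 10 neighbour probes 5 were detected on at least 3 arrays and could be tested, 1 each for Cdyl2, Cmc2, Cenpn, Plcg2 and Mphosph6, and 0 of the 5 passed, at an adjusted p of 0.05 or at an unadjusted p under 0.05 (background 0.0439% and 7.53%). The older names added 3 tested probes, a second for Cenpn and 2 for Cmip, with the same counts of 0. Of these 8 probes 5 were lower and 3 higher in knockout cultures, with a median log2 fold change of -0.08, beside 51.6% lower and a median of -0.01 among all tested probes. For none of the 8 did the genotypes separate, where 14.1% of all tested probes had groups that do not overlap.

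Cenpn, the adjacent gene, had the lowest value among the neighbours. Its probe 1690360 read 427.1, 244.1 and 321.3 units on the wild-type arrays and 321.0, 205.0 and 187.7 units on the knockout arrays. Knockout replicate 1 reached the range of wild type and wild-type replicate 1 stood highest. Knockout minus wild type, the log2 difference was -0.38 (SE 0.18, limma adjusted p = 0.671, 95% confidence interval -0.79 to 0.03), from 7.85 ± 0.19 to 7.47 ± 0.28 (n = 3 each). The second Cenpn probe, 7650195, carried under the older name 2610510J17RIK, gave -0.34 (SE 0.17, limma adjusted p = 0.688, 95% confidence interval -0.74 to 0.06), with 688.6, 357.3 and 424.6 units in wild-type against 403.3, 324.9 and 268.4 units in knockout cultures. Both probes thus leaned the same way without passing, and over the alternatives run probe 1690360 ranged from -0.54, without knockout replicate 1, to -0.17, without wild-type replicate 1 and knockout replicate 3 together. It passed in none of them.

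Other genes of the centromere and of mitosis were mostly lower too, without passing. Of 26 such genes 22 were tested, 20 of them were lower in knockout cultures, 0 passed over all probes and 8 had an unadjusted p under 0.05, with a median log2 fold change of -0.35. Over the brightest probes of all named genes 52.2% were lower, 7.71% had an unadjusted p under 0.05 and the median was -0.01. The one with the smallest p was Kif11, a spindle motor (-0.69, SE 0.13, adjusted p = 0.370 by limma). Among genes that sit with CENPN in the inner kinetochore, Cenpp stood lowest at -0.67 (unadjusted p = 0.00552, adjusted p = 0.489 by limma), followed by Cenpq at -0.43, Cenpi at -0.41, Cenpk at -0.39 and Cenpm at -0.31. Cenpl, whose product pairs with CENPN, stood at -0.22, Cenph at -0.13, Cenpt at -0.06, Cenpo at 0.06 and Cenpw at 0.25. The mean level of the 22 genes lay between 8.37 and 8.60 in wild-type and between 8.05 and 8.28 in knockout cultures, highest in wild-type replicate 1 and lowest in knockout replicate 3. The same 2 arrays were highest and lowest for both Cenpn probes. The part of these genes' shift in the Cenpn values was not tested.

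**Figure D2:**
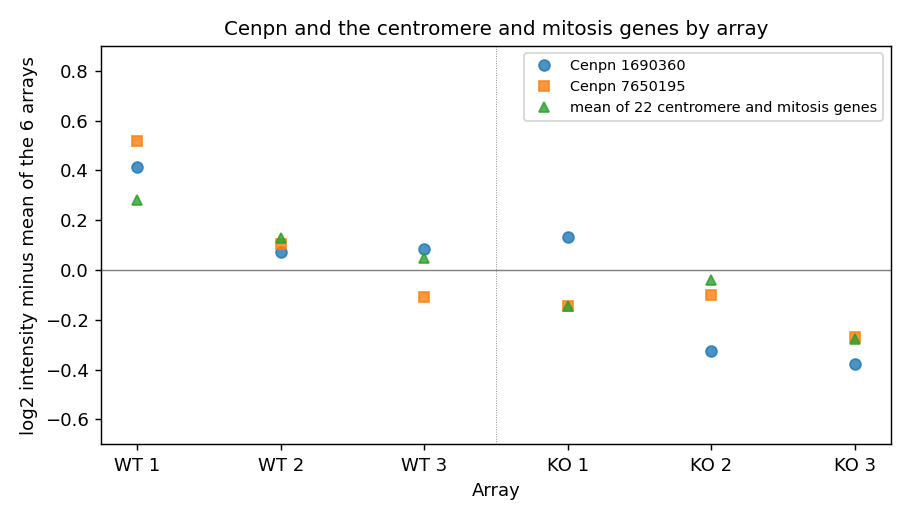
Log2 level minus the mean of the 6 arrays, for the 2 Cenpn probes and for the mean of 22 centromere and mitosis genes, on each wild-type (WT) and knockout (KO) array. All 3 series are highest in wild-type replicate 1 and lowest in knockout replicate 3, and probe 1690360 of knockout replicate 1 lies above 0.

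Cmc2, whose annotated span overlaps that of Atmin, was dim. Probe 6510400 read 128.3, 103.3 and 122.1 units on the wild-type arrays and 106.5, 103.0 and 103.2 units on the knockout arrays, and was detected on all 6. Wild-type replicate 2 lay among the knockout readings. Knockout minus wild type, the log2 difference was -0.23 (SE 0.14, limma adjusted p = 0.734, 95% confidence interval -0.56 to 0.09), from 5.40 ± 0.13 to 5.17 ± 0.18 (n = 3 each). With single arrays left out it was -0.31 (without knockout replicate 3) to -0.13 (without knockout replicate 1), and it passed in none of these. No array detected the other Cmc2 probe. Cmc1, the related assembly factor, stood at 0.17 (adjusted p = 0.769 by limma).

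Cdyl2, the next named neighbour on that side, was close to background. Its probe read 101.0, 90.3 and 111.8 units in wild-type and 104.3, 94.0 and 99.7 units in knockout cultures, and was detected on 1 wild-type and 2 knockout arrays. The log2 difference of 0.12 (SE 0.20, limma adjusted p = 0.909, 95% confidence interval -0.33 to 0.58) is measured near the floor of the array. Its paralogue Cdyl, which was detected on every array, stood at 0.02 (adjusted p = 0.982 by limma).

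On the other side of Atmin the 2 nearest named genes could not be assessed. The Gcsh probe 2120411 was detected on knockout replicate 1 alone and its second probe, under the name 1100001L02RIK, on wild-type replicate 3 alone. None of the 3 Pkd1l2 probes, nor another named 1700126L06RIK, was detected on any array. The 5 neighbour probes that were not tested read between 79.7 and 104.7 units, the range of background. A fall of these genes would not have been detectable at this brightness. The enzymes that work with GCSH were measured instead as a list: all 6 genes of the glycine cleavage system and of lipoate attachment were tested, 4 higher and 2 lower, 0 past the threshold, with a median of 0.06. Gldc, the decarboxylase, stood at 0.03, Amt, the aminomethyltransferase, at 0.22 (detected on 4 arrays) and Dld, the dehydrogenase, at -0.19. Lias, which makes lipoate, stood at 0.16, and the lipoyltransferase genes Lipt1 and Lipt2 at 0.10 and -0.22.

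The neighbours further along were brighter. Mphosph6, the brightest, read 1279.6, 746.3 and 1222.5 units on the wild-type arrays and 1311.6, 923.8 and 763.6 units on the knockout arrays. The lowest readings, wild-type replicate 2 and knockout replicate 3, came 1 from each genotype, and the groups overlap. Normalization gave 9.84 ± 0.15 and 9.98 ± 0.11 (n = 3 each). The log2 difference was 0.14 (SE 0.13, limma adjusted p = 0.831, 95% confidence interval -0.16 to 0.44). Its level in knockout cultures was therefore between 89.4% and 136% of wild type by that interval. With single arrays left out the log2 difference was 0.062 to 0.21, lowest without wild-type replicate 2 and highest without wild-type replicate 3.

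Plcg2 read 322.5, 217.0 and 338.1 units in wild-type and 288.6, 227.6 and 201.9 units in knockout cultures, with overlap. The log2 difference was -0.10 (SE 0.13, limma adjusted p = 0.887, 95% confidence interval -0.41 to 0.21), from 7.63 ± 0.19 to 7.53 ± 0.07 (n = 3 each). This gene is known from macrophages and other blood cells, and the macrophage markers in the same arrays were lower in knockout cultures. Their 10 tested members had a median of -1.08, beside -0.01 over the brightest probes of all named genes. Of these markers 0 passed over all probes, beside 0.0467% of those genes. The mean level of the markers lay between 6.22 and 6.90 in wild-type and between 5.46 and 5.81 in knockout cultures. Ms4a7, the one with the smallest p, was detected on all 3 wild-type and on 0 knockout arrays, and C1qb and C1qc on 3 wild-type and 1 knockout array, so these entered the test through the group where they are high. Of the 6 markers detected on all 6 arrays, Laptm5 stood at -1.12 and Lyz2 at -1.50 (adjusted p = 0.382 and 0.478 by limma), Lyz1 at -1.67 and Fcer1g at -1.25. Cd68 stood at -0.62 and Cd14 at -0.13 (adjusted p = 0.629 and 0.898 by limma), both with groups that overlap. The defining markers Csf1r, Ptprc and Adgre1 did not enter the test. The part of such cells in the Plcg2 signal was not tested.

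Cmip was measured by the 2 probes named 4933407C03RIK. Probe 1710176 read 708.7, 490.1 and 888.4 units in wild-type and 844.5, 536.8 and 530.1 units in knockout cultures, which is 0.14 as a log2 fold change (SE 0.17, 95% confidence interval -0.27 to 0.54). Probe 4850021 read 651.4, 434.9 and 657.5 units and 714.6, 404.7 and 349.2 units in the same order, which is -0.07 as a log2 fold change (SE 0.17, 95% confidence interval -0.46 to 0.33). The signs differ and both intervals hold 0, with adjusted p = 0.876 and 0.945 by limma. Among the relatives of the neighbours, 12 genes in all, 9 were tested, 6 higher and 3 lower with 0 past the threshold and a median of 0.03. The one with the smallest p was Cmc1.

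**Figure D3:**
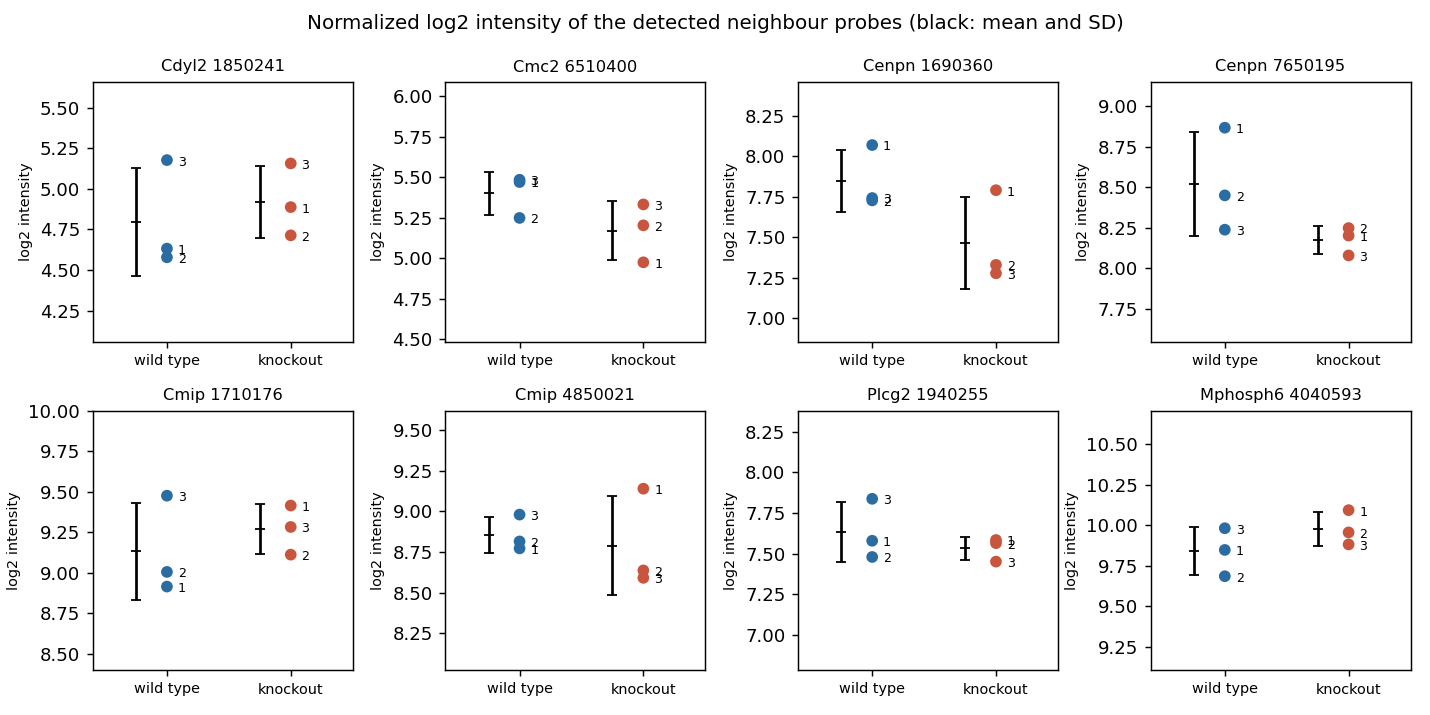
Normalized log2 intensity of each detected neighbour probe in the 3 wild-type (blue) and 3 knockout (red) cultures, numbered by replicate, with the mean and SD in black. Each panel spans 1.6 log2 units, and in all 8 panels the genotypes overlap.

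The change of Atmin was set against that of each bright neighbour within the arrays. Cmc2 and Cdyl2 had wild-type log2 means of 5.40 and 4.80, where the member probes too dim to test lay at 4.35 to 4.63. On this scale Cmc2 and Cdyl2 had no room for a fall of Atmin's size and are left out of this comparison. The log2 change of the brightest Atmin probe minus that of the neighbour was -1.61 for Cenpn (pooled SD 0.27), -1.90 for Plcg2 (0.22) and -2.13 for Mphosph6 (0.21). With the older names it was -1.65 for the second Cenpn probe, -2.13 for Cmip probe 1710176 and -1.93 for Cmip probe 4850021. In each of these comparisons all 3 knockout values lay below all 3 wild-type values. The exact two-sided permutation p was 0.10 in each, also after Benjamini-Hochberg adjustment over all 8 neighbour probes computed, which is the smallest that 3 arrays against 3 can give. All of them use the same Atmin probe, whose own values did not overlap between the genotypes. The comparisons are therefore not separate from each other, and their separation comes mostly from Atmin. By limma's intervals, the lowest bound of the Cenpn, Cmip, Plcg2 and Mphosph6 probes was -0.79, and the highest bound of the bright Atmin probes was -1.63. For these 4 genes a decrease as large as that of Atmin lay outside the interval, while a decrease of the size seen for Cenpn did not pass. For Cdyl2 the arrays cannot tell. Cmc2 could not have fallen as far as Atmin on this log2 scale. Its knockout log2 mean of 5.17 stayed above the 4.35 to 4.63 of the member probes too dim to test, and all 3 knockout arrays detected it. Net of the fitted background, probe 6510400 read 29.7 ± 10.0 units in wild-type and 17.9 ± 1.1 in knockout cultures (mean ± SD, n = 3 each), or 60.4% of wild type. By that measure the Cenpn probes stood at 62.5% and 61.2%, Plcg2 at 74.9% and Mphosph6 at 91.8%. The Cmip probes stood at 90.7% and 81.8%, and Cdyl2, near the floor, at 102%. These net values were not tested.

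**Figure D4:**
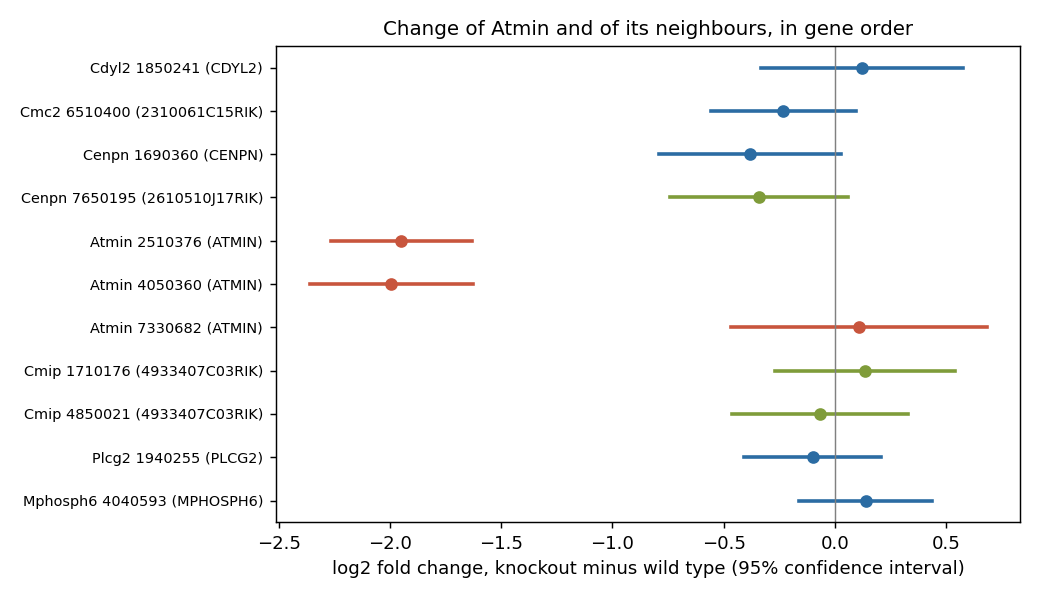
Log2 fold change, knockout minus wild type, with its 95% confidence interval from limma, for the 3 Atmin probes (red), the neighbour probes named by the current gene (blue) and those under older names (green), in gene order from top to bottom. The intervals of 4050360 and 2510376 end at -1.63, and those of all 8 neighbour probes begin at -0.79 or higher. On this scale the dim Cmc2 and Cdyl2 probes had no room to fall as far as Atmin.

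The same was asked of a wider window. Of the 50 annotated genes within 25 positions of Atmin, 16 were protein-coding, 17 had a probe of their name and 10 were tested by their brightest probe. None of the 10 passed and 0 had an unadjusted p under 0.05, beside 0.0467% and 7.71% among the brightest probes of 10700 named genes. They were lower for 6 and higher for 4, with a median of -0.16 against -0.01 over all genes, and 1 had groups that do not overlap, beside 14.5% of all genes. That gene was Maf, a transcription factor gene at position -21, with 5.22, 5.17 and 5.04 in wild-type and 4.90, 4.95 and 4.94 in knockout cultures (log2 level), a log2 difference of -0.21 (SE 0.11, adjusted p = 0.699 by limma). After Cenpn, Maf and Cmc2 had the smallest p of the window. The gene directly beyond Atmin, 1700030J22Rik at position 1, stood at -0.23 (SE 0.14) and was detected on 5 arrays.

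Along the whole of chromosome 8, 571 genes other than Atmin were tested. Of these 53.9% were lower in knockout cultures, 8.06% had an unadjusted p under 0.05 and 14.2% had groups that do not overlap, against 52.2%, 7.71% and 14.5% over all named genes. A single one passed, Got1l1, a relative of aspartate aminotransferase, which was higher by 1.34 (SE 0.14, adjusted p = 0.0282 by limma) and stood at position -1525 from Atmin. The lowest value on the chromosome after Atmin was that of Comp, a cartilage matrix protein gene (-1.63, SE 0.42, adjusted p = 0.489 by limma), at position -959.

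**Figure D5:**
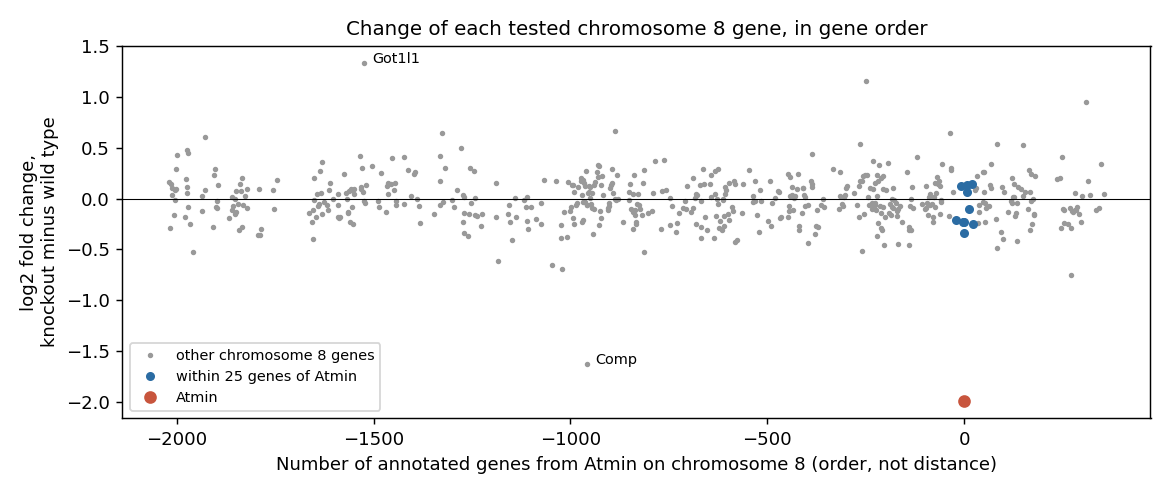
Log2 fold change, knockout minus wild type, of each tested chromosome 8 gene against the number of annotated genes between it and Atmin, in order and not in distance. Atmin (red) lies at -1.99, the 10 tested genes within 25 positions (blue) lie between -0.34 and 0.14, and Got1l1 and Comp stand apart far from it.

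Dynll1, the known target of ATMIN, followed it most closely. Among 1946 tested probes of other genes whose levels spanned at least 1 log2 unit over the arrays, the 5 most like the brightest Atmin probe were both Dynll1 probes (Pearson r of 0.98 and 0.97 over 6 arrays), Dmpk (0.97), Eml1 (0.96) and Slitrk5 (0.96). Such values describe the shared gap between the genotypes, with 2 groups of 3 arrays behind every value. Of these, Dynll1 passed, with log2 fold changes of -1.89 and -2.31 (adjusted p = 0.00182 each by limma), and Dmpk (-0.84), Eml1 (-0.77) and Slitrk5 (-0.90) did not (adjusted p = 0.285, 0.382 and 0.398 by limma). The neighbour probes correlated with Atmin between -0.50 for Mphosph6 and 0.72 for Cenpn.

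Among 10 genes listed as linked to ATMIN or to ATM, 9 were tested, 7 lower and 2 higher, with a median of -0.11, and Dynll1 alone passed. Over the brightest probes of all named genes 52.2% were lower, 0.0467% passed and the median was -0.01. Dynll2, the gene of the other LC8 chain, stood at 0.07 (SE 0.14, adjusted p = 0.927 by limma) and Atm at -0.01 (SE 0.19, adjusted p = 0.994 by limma). The repair nuclease gene Mre11a stood at -0.28 (SE 0.15), Rad50 at -0.11 and Trp53bp1 at 0.02.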

How the data were processed

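Labelled RNA of 6 cultures was read on 1-colour MouseWG-6 bead arrays. Per the file headers, the authors deposited mean bead intensity per probe, the SD and count of its beads and a detection fraction from 0 to 1, exported without normalization from GenomeStudio version 1.6.0. Detection p is 1 minus that fraction. The deposited normalized values, a score made in lumi per the submitters' notes on processing, have no stated method or log base and served as an alternative. The remaining 24 of 48 per-array columns were left out.

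The neqc function of limma version 3.58.1 (R version 4.3.3; offset 16) corrected background and quantile-normalized the arrays on a log2 scale. Probes detected on at least 3 arrays, 18221 of 45281, entered lmFit and eBayes, with two-sided p-values adjusted by Benjamini-Hochberg over all of them (threshold 0.05). The procedure was tested on simulated data. RefSeq names of GRCm38.p6 matched 80.9% of probes and gave gene order only, since the files name no build. A gene with several probes was taken by its brightest. Exact permutation was run in Python version 3.11.15.

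The genes named by rule are the members, Dynll1, the 3 window genes with the smallest p or any past the threshold, the 5 most like Atmin, and per list those past the threshold or the smallest p. The other genes named, among them those given from the lists, 1700030J22Rik, Comp and Got1l1, were chosen after their values were seen. Members and lists were chosen with earlier results of these data known. Alternatives covered background, normalization, filters, the probe rule, the variance model, a replicate block, arrays left out and the threshold.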

Additional observations from a re-analysis of the deposited data

How the results depend on the processing

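Over 20 alternatives Atmin's brightest probe kept its direction, from -2.08 to -1.20, and 15 kept it past the threshold (adjusted p from 0.000823 to 0.0779 by limma). The call ended without the filter on dim probes (-1.99, adjusted p = 0.0579 by limma, with all 45281 probes tested) and with the dim probe 7330682 averaged in (-1.28, adjusted p = 0.0686 by limma). Leaving out 1 array gave -2.08 to -1.84, and the call ended without each wild-type array and held without each knockout array. Same-numbered cultures did not deviate together (r of 0.22, -0.19 and -0.21), so the numbers were not taken as pairs. With the replicate block the value was -1.99 (adjusted p = 0.0418 by limma) and 6 probes passed in all, and the block changed no call of a member. The count of 8 probes past the threshold was 4 without background correction, with the submitters' values, without the filter and with probes averaged, 5 with 1 probe per gene, 9 with a variance trend and robust fit and without wild-type replicate 1 and knockout replicate 3 together, and 12 with array weights. With 1 array left out it was 2 to 7, at 2 without wild-type replicate 1 and 2 without wild-type replicate 3. The count of neighbour probes past the threshold was 0 under every alternative run, also with older names added (chosen after seeing the data). So was that of the genes within 25 positions of Atmin. At most 12 of all tested probes passed in any alternative. Counts of 0 among so few neighbours were therefore likely beforehand and say little about a spread. The smallest gap between the changes of Atmin and a neighbour, -1.61, was -1.31 with normexp and an offset of 50, -1.20 without background correction, -0.98 in the submitters' values and -0.92 with probes averaged; the cause was not tested. Uncalled values near 0 changed sign: Atmin probe 7330682 with array weights (-0.0021) and over single arrays left out (-0.089 to 0.32), Cdyl2 with array weights (-0.016) and without wild-type replicate 1 and knockout replicate 3 together (-0.077), and Plcg2 over single arrays left out (-0.18 to 0.0038). Dim signal limits what can be said of Gcsh, Pkd1l2 and Cdyl2, where a loss would hardly lower the reading. It limits Cmc2 less, whose probe 6510400 was detected on all 6 arrays, with log2 means of 5.40 in wild-type and 5.17 in knockout cultures.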
